A study of Mus musculus with 6 samples.

Results

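Extracellular nucleotides and adenosine act on macrophages through a small set of surface proteins, and 10 genes of this system were followed here across 6 RNA-seq libraries. The genes encode a pair of ATP-gated channels (P2rx4, P2rx7), 4 nucleotide receptors (P2ry2, P2ry6, P2ry12, P2ry14), the ectonucleotidase CD39 (Entpd1), the ATP release channel pannexin 1 (Panx1) and both adenosine receptors of the A2 class (Adora2a, Adora2b). They were taken by gene name from the deposited table, and all 10 were found among its 54660 gene rows. The cells were cultured mouse bone marrow-derived macrophages (BMDMs) from C57BL/6 mice aged 6 to 8 weeks, lysed once they had been exposed for 6 h to lipopolysaccharide (LPS), an outer membrane component of Gram-negative bacteria. The WT group, 3 libraries, had the genotype Xbp1FL/FL, a floxed Xbp1 gene, and the KO group, also 3 libraries, the genotype Xbp1M-KO. Both groups received LPS and share the C57BL/6 background. Which promoter drives the deletion and which exons are floxed is not stated in the labels. The study's title asks about XBP1, a transcription factor that endoplasmic reticulum stress activates, and STING signalling in macrophages during liver fibrosis.

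ATP leaves stressed or dying cells through channels such as pannexin 1 and opens P2X channels, which pass cations, or activates P2Y receptors, which signal through G proteins. CD39 on the cell surface removes phosphates from ATP and ADP to give AMP, which CD73 (Nt5e) turns into adenosine. Adenosine binds A2a and A2b receptors, which raise cyclic AMP (cAMP), and in macrophages this is known to restrain the LPS-driven inflammatory response, whereas ATP at P2X7 leads to activation of the NLRP3 inflammasome and release of IL-1 beta.

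The libraries held between 31976748 and 42448058 counts, and 13080 genes passed the filter on low counts and were tested with edgeR. A gene counted as called when its p, adjusted by the Benjamini-Hochberg method, was under 0.05, and a positive log2 fold change stands for a higher level in KO. The deleted gene, Xbp1, was at 91.2, 88.2 and 87.5 counts scaled to a common library size (CPM) in WT and at 66.3, 65.5 and 65.6 CPM in KO, a log2 fold change of -0.44 (edgeR adjusted p = 2.38e-08, standard error (SE) 0.0363), so its transcript was reduced and not absent. Of the tested genes 61.3% were called, 31.5% higher and 29.8% lower in KO, so a call alone does not set a gene apart in these libraries. Scaling by library totals instead of TMM moved the median log2 fold change of all genes to 0.11, and the split of calls moved from 4115 higher and 3904 lower to 5120 and 2956. Fold changes also followed base composition, with a median log2 fold change of -0.28 among genes with a GC content up to 41.3% and 0.17 among those from 57.7%. For this reason the value after removal of the trend with GC content and gene length is given beside each of the 10 genes, and for some other genes. Values of other genes given alone can shift as well. On the log2 scale Cd38, named below, went from 0.70 to 0.98 and Sik1 from 0.85 to 0.59. Of 15 macrophage markers 14 were tested, with 7 members higher and 6 lower. Their summed level was 42289 to 43825 CPM in WT and 24979 to 25543 CPM in KO. The largest part of that sum was Lyz2, at 29831 ± 761 CPM in WT and 11515 ± 348 CPM in KO. The macrophage-defining Adgre1 and Csf1r were abundant, with 708 ± 10.6 CPM in WT and 1038 ± 16.8 CPM in KO for Csf1r. Among 15 neutrophil markers 9 of 10 tested rose, and the list summed to 508 to 536 CPM in WT and 759 to 789 CPM in KO. The largest part of it was Lcn2, at 229 ± 4.08 CPM in WT and 360 ± 8.86 CPM in KO, while Ly6g and Mpo were near 0. Stromal markers summed to 816 to 831 CPM in WT and 464 to 475 CPM in KO, with 9 of 14 tested lower and 2 higher. Dendritic cell, mast cell and lymphocyte markers summed to at most 12.8, 1.94 and 6.08 CPM. The part of these marker shifts in the results below was not tested, and in bulk RNA fewer cells of a type and less RNA per cell cannot be told apart.

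All 10 genes passed the filter, and the receptor set split evenly. P2rx4, P2rx7, P2ry2 and Adora2a rose in KO, P2ry12, P2ry14, Entpd1 and Adora2b fell, and P2ry6 and Panx1 were not called. The 8 calls of 10 stand beside 61.3% called among all tested genes, the 4 higher beside 31.5% and the 4 lower beside 29.8%. The median log2 fold change of the 10 genes was 0.10, against 0.00 over all tested genes. The WT and KO libraries did not overlap for 9 of the genes, P2ry6 being the exception, and 65.9% of all tested genes had no overlap. With the GC and length trend removed 6 genes were called, P2ry2 higher and P2ry12, P2ry14, Entpd1, Adora2b and P2ry6 lower. The falls of P2ry12, P2ry14, Entpd1 and Adora2b and the rise of P2ry2 were called under each scaling, filter and tool tried and without each library in turn.

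**Figure D1:**
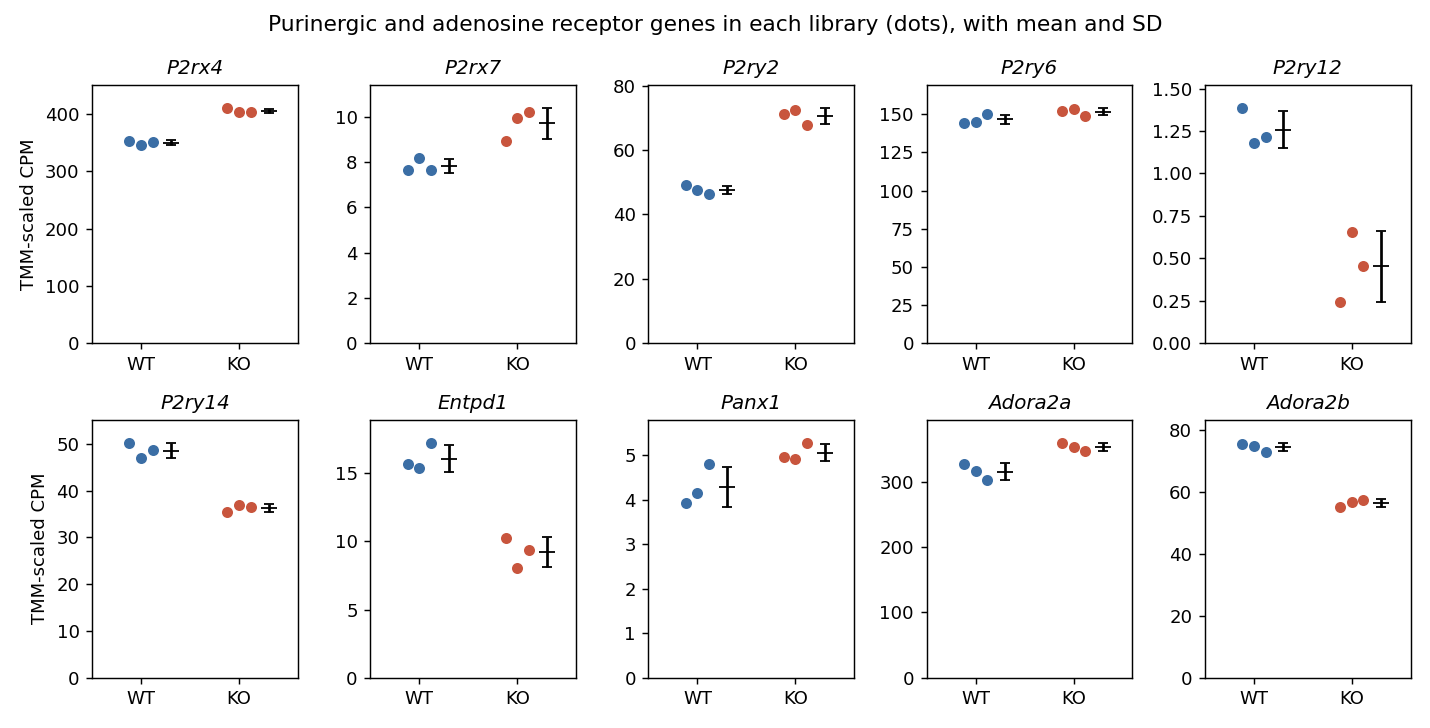
Level of each gene in TMM-scaled CPM (vertical axis, from 0) in the 3 WT (blue) and 3 KO (red) libraries, with the mean and SD of each group as black bars. The groups overlap for P2ry6 and are separate for the other genes, the KO libraries of P2ry12 spreading from 0.241 to 0.657 CPM.

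Compared per length, with FPKM as the authors deposited it, the adenosine A2a receptor transcript was the most abundant of the set and the P2Y12 transcript the least. Adora2a stood at 102 ± 4.30 FPKM in WT (SD, n = 3, as for the values that follow) and 114 ± 1.90 in KO, above 94.5% and 95.5% of tested genes. In WT, P2ry6 at 50.4 ± 0.927 FPKM and P2rx4 at 49.5 ± 0.477 FPKM came next, and these neighbours overlapped between libraries. In KO the order of these genes was turned, with P2rx4 at 57.5 ± 0.448 FPKM above P2ry6 at 52.2 ± 0.738 FPKM in every library. Adora2b followed at 39.99 ± 0.777 FPKM in WT and 30.3 ± 0.663 in KO, then P2ry2 at 12.04 ± 0.336 and 17.8 ± 0.607, and P2ry14 at 4.35 ± 0.134 and 3.26 ± 0.0763. At the low end Entpd1 was at 2.86 ± 0.170 FPKM and P2rx7 at 1.30 ± 0.0550 FPKM in WT. In KO they overlapped, Entpd1 ranging from 1.43 to 1.82 FPKM and P2rx7 from 1.49 to 1.70 FPKM. Panx1 at 0.707 ± 0.0728 and P2ry12 at 0.490 ± 0.0423 FPKM in WT were below 1 FPKM, and P2ry12 at 0.176 ± 0.0812 FPKM in KO exceeded only 10.2% of tested genes.

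**Figure D2:**
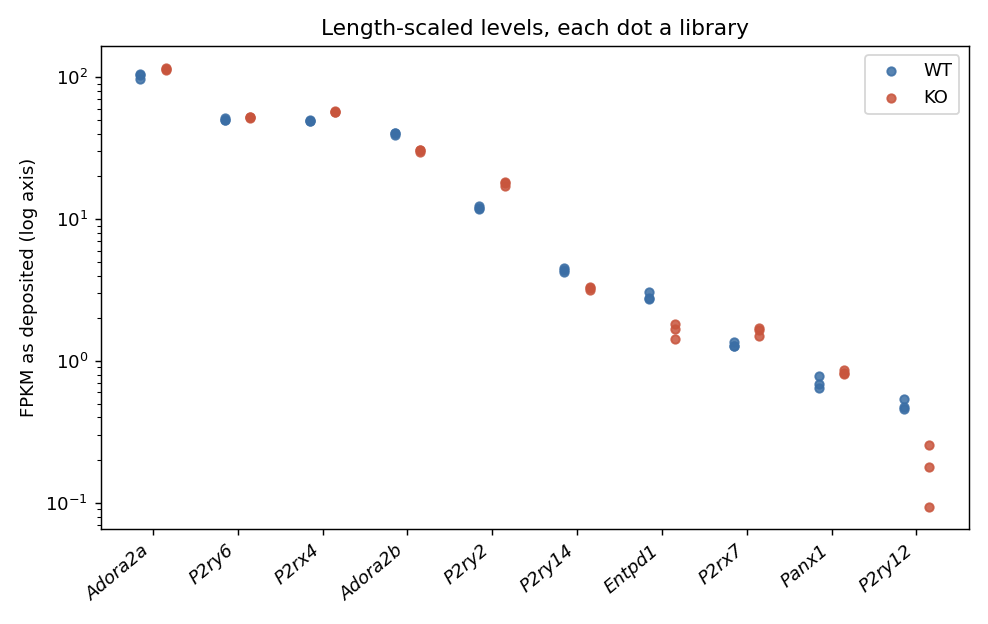
Deposited FPKM (vertical axis, log scale) of the 10 genes in each WT (blue) and KO (red) library, ordered by the WT mean. Levels span from about 100 FPKM for Adora2a to under 1 FPKM for Panx1 and P2ry12, and the KO points of Entpd1 and P2rx7 lie at the same height.

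Both ATP-gated channel genes rose modestly in KO, although neither rise was called once the GC and length trend was removed. P2X4 (P2rx4, ENSMUSG00000029470, chromosome 5, 122707544 to 122729738 on mm10, plus strand) is a calcium-permeable channel that in macrophages resides largely in lysosomes. P2rx4 was at 354, 346 and 352 CPM in WT and at 410, 404 and 405 CPM in KO. The KO libraries all lay above the WT libraries, and the log2 fold change was 0.21 (edgeR adjusted p = 7.36e-06, SE 0.0291), with 0.05 and an adjusted p of 0.101 after trend removal in the same edgeR test. P2X7 (P2rx7, ENSMUSG00000029468, chromosome 5, 122643911 to 122691432, plus strand), the channel that needs high ATP and whose opening lets potassium out of the cell, was a low-abundance transcript here. P2rx7 was at 7.66, 8.20 and 7.68 CPM in WT and at 8.96, 9.96 and 10.2 CPM in KO. Again every KO library was higher, with a log2 fold change of 0.31 (edgeR adjusted p = 0.00412, SE 0.0839), and 0.11 with an adjusted p of 0.271 after trend removal. The genes lie 16112 bp apart on the same strand. The ratio of P2rx7 to P2rx4 within a library, on the log2 FPKM scale, was -5.25 ± 0.0726 in WT and -5.15 ± 0.113 in KO, a difference of 0.09 whose libraries overlapped (two-sided exact permutation test, p = 0.3). With 3 libraries against 3 the smallest p this test can give is 0.1.

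Of the other tested genes within 50 kb of these channels, 1 rose and 1 was not called. Camkk2, a calcium-calmodulin kinase gene 1432 bp from P2rx4, rose by 0.44 on the log2 scale (edgeR adjusted p = 3.60e-07, SE 0.0458), and by 0.06 with an adjusted p of 0.225 after trend removal. Ift81, a ciliary transport gene 29393 bp from P2rx7, was near the filter level at 0.305 ± 0.144 CPM in WT and 0.462 ± 0.268 CPM in KO and was not called. The microRNA gene Mir8115 lies within P2rx7 and shares 119 exonic bases with it, so reads there cannot be assigned to either from these counts.

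The G protein-coupled P2Y receptors changed in opposite directions. The UTP and ATP receptor gene P2ry2 rose 1.48-fold, the UDP receptor gene P2ry6 was not called, and the receptor genes for ADP (P2ry12) and UDP-glucose (P2ry14) fell.

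P2Y2 (P2ry2, ENSMUSG00000032860, chromosome 7, 100996568 to 101012866, minus strand) couples mainly to Gq and is known as the receptor through which phagocytes sense nucleotides from apoptotic cells. P2ry2 was at 49.0, 47.5 and 46.4 CPM in WT and at 71.3, 72.4 and 67.7 CPM in KO. The lowest KO library stood well above the highest WT library, and the log2 fold change was 0.56 (edgeR adjusted p = 5.47e-09, SE 0.0417), higher than that of 85.8% of tested genes. After trend removal it was 0.32 with an adjusted p of 1.12e-06. P2Y6 (P2ry6, ENSMUSG00000048779, chromosome 7, 100937630 to 100974649, minus strand), a Gq-coupled receptor linked to phagocytosis in microglia, lies 21919 bp from P2ry2. P2ry6 was at 145, 145 and 150 CPM in WT and at 152, 153 and 149 CPM in KO. The lowest KO library fell within the WT range, and the log2 fold change was 0.05 (edgeR adjusted p = 0.227, SE 0.0338, 95% interval -0.05 to 0.14), which scaling by library totals moved to 0.16 (adjusted p = 5.12e-04) and trend removal to -0.10 (adjusted p = 0.0193). P2ry6 therefore has no settled direction in these libraries. Within a library the ratio of P2ry6 to P2ry2, which library scaling does not affect, was 4.19 in WT and 2.93 in KO. On the log2 scale it went from 2.07 ± 0.0661 to 1.55 ± 0.0290, with no overlap (exact permutation p = 0.1, the smallest possible), and the difference of -0.52 was -0.42 after trend removal. Arhgef17, 5523 bp from P2ry6, fell by 0.52 on the log2 scale (edgeR adjusted p = 0.00861, SE 0.155) and by 0.94 after trend removal, and was not called without WT replicate 1 (adjusted p = 0.0638).

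P2ry12 and P2ry14 are neighbours on chromosome 3, and P2ry13, another ADP receptor gene, lies between them. P2Y12 (P2ry12, ENSMUSG00000036353, chromosome 3, 59216272 to 59262871, minus strand) couples to Gi, is the target of antiplatelet drugs such as clopidogrel and marks resting microglia. P2ry12 had 50, 39 and 38 counts in the WT libraries and 8, 24 and 20 in the KO libraries, or 1.38, 1.18 and 1.22 CPM against 0.241, 0.657 and 0.455 CPM. All KO libraries lay below all WT libraries, although KO replicate 1 was much lower than the other two. The log2 fold change was -1.46 (edgeR adjusted p = 6.92e-04, SE 0.314), and only 0.894% of tested genes had a lower value. The counts summed over libraries gave a WT level 2.76 times that of KO, with a 95% exact interval of 1.99 to 3.89 that covers counting error only. The gene passed the filter level of 0.288 CPM in 3 WT and 2 KO libraries. Without KO replicate 1 the log2 fold change was -1.19 (edgeR adjusted p = 0.00448), and after trend removal it was -0.999 (adjusted p = 0.0129). 

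Cell types known for P2ry12 were checked through their markers. Among 10 megakaryocyte and platelet markers the 5 tested had 1 higher, 2 lower and 2 not called, and the list summed to 325 to 344 CPM in WT and 172 to 180 CPM in KO. Nearly all of that sum was Pf4, a chemokine gene that macrophages also express. Pf4 and Ppbp were the lower calls. Tubb1 was the higher one, from 0.0578 ± 0.0502 to 0.431 ± 0.148 CPM (log2 fold change 2.77, edgeR adjusted p = 9.85e-04). Itga2b and Gp6, at 1.00 and 0.40 on the log2 scale, were not called, and the median of the 5 was 0.40. Gp1bb was at 0 in every library and Gp1ba, Gp9 and Treml1 were below the filter. The 10 microglia-associated genes had 2 higher, 2 lower and 2 not called of 6 tested, with a median log2 fold change of -0.04. They summed to 251 to 262 CPM in WT and 214 to 218 CPM in KO. Tmem119 and Cx3cr1 rose by 0.48 and 0.87 on the log2 scale. Sparc, also on the stromal list, fell from 82.7 ± 2.07 to 54.0 ± 0.434 CPM and Fcrls from 68.6 ± 3.35 to 54.8 ± 0.546 CPM. Slc2a5 was at 0 in every library and Sall1 and Siglech were at or near 0. The part of either list in the P2ry12 value was not tested. The transcripts closest to P2ry12 in pattern were Cip2a (distance 0.436), Slc24a5 (0.520) and Cnn1 (0.580). This was by Euclidean distance of centred log2 CPM over the 6 libraries, among genes of mean CPM at least 1. P2ry12 itself averaged below that floor, so other genes at its level were not searched. The log2 values used a prior count of 2, which shrinks differences more for genes with few counts. Cip2a went from 1.59 ± 0.252 to 0.581 ± 0.212 CPM and Cnn1, a smooth muscle calponin gene, from 9.61 ± 0.632 to 3.79 ± 0.673 CPM.

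P2Y14 (P2ry14, ENSMUSG00000036381, chromosome 3, 59113855 to 59153618, minus strand) is a Gi-coupled receptor for UDP-glucose and other UDP-sugars. P2ry14 was at 50.1, 46.9 and 48.7 CPM in WT and at 35.4, 37.0 and 36.6 CPM in KO. The groups were tight and apart, with a log2 fold change of -0.42 (edgeR adjusted p = 3.52e-07, SE 0.0439), and -0.29 with an adjusted p of 2.39e-05 after trend removal. P2ry13 was at 7.11, 8.65 and 6.91 CPM in WT and at 8.57, 8.92 and 9.12 CPM in KO. The highest WT library was above the lowest KO library, and the rise of 0.23 (edgeR adjusted p = 0.0440, SE 0.0952) was lost without WT replicate 1 (adjusted p = 0.148) and with DESeq2 (adjusted p = 0.1), and was 0.48 with an edgeR adjusted p of 3.83e-04 after trend removal. Thus the gene between P2ry12 and P2ry14 was not called lower under any of these fits. All 3 lie within the span of Med12l, a Mediator subunit gene on the opposite strand, which was at 0.486 ± 0.0369 CPM in WT and 0.451 ± 0.122 CPM in KO and was not called, and which shares 9 exonic bases with P2ry12 and 0 with P2ry14. The ratio of P2ry14 to P2ry12 was 8.90 in WT and 20.1 in KO. On the log2 scale it went from 3.15 ± 0.0824 to 4.33 ± 0.700, again with no overlap (exact permutation p = 0.1), and the difference of 1.17 was 0.84 after trend removal, 0.80 without KO replicate 1 and 0.73 with a pseudocount of 0.1 FPKM.

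The promoters of P2ry2 and P2ry12 are shown because these genes had the largest rise and the largest fall of the set. The windows are RefSeq sequences of GRCm38.p6, each running from 250 bases before to 50 bases after an annotated start, at chr7:101012004-101012303 on the minus strand and chr3:59262936-59263235 on the minus strand. They were searched on both strands for ACGTG, the core shared by XBP1 and bHLH sites, for TGACGTGG, TGACGTCA, TGANTCA and GAAANNGAA, and for the NF-kB consensus. TGACGTGG contains ACGTG, so a match to the longer motif is also one to the shorter. Capitals mark the matches.
P2ry2: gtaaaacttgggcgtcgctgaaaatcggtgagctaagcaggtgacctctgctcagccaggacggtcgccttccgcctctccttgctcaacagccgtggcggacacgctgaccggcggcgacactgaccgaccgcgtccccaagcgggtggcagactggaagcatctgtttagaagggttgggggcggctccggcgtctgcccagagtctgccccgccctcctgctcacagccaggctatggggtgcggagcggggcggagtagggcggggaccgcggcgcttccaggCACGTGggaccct
P2ry12: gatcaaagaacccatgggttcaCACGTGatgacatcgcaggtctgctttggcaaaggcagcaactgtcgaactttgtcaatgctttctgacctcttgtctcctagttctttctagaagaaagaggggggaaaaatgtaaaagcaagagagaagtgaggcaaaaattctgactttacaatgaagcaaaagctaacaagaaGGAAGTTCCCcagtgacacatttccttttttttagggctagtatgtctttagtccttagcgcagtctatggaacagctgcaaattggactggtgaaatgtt
Both windows held ACGTG on both strands as the overlapping run CACGTG, which began 37 bases after the P2ry2 start of this window, 18 bases before a second annotated P2ry2 start, and 228 bases before the P2ry12 start. The P2ry12 window also held an NF-kB consensus match that began 51 bases before the start. ACGTG was found in 19.6% of all 32851 RefSeq windows of the same length and the NF-kB consensus in 8.46%, so neither match is rare. Of the 8 genes with a window, those 2 held that core. The AP-1 motif TGANTCA, found in 7.81% of windows, occurred in a window of P2rx7 and in windows of P2ry14. The windows of P2rx4, Adora2b and Panx1 held no match, and P2ry6 and Adora2a were without a window.

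CD39, the enzyme that ends ATP signalling, fell more than any receptor gene other than P2ry12. Entpd1 (ENSMUSG00000048120, chromosome 19, 40612366 to 40741602, plus strand) was at 15.7, 15.3 and 17.2 CPM in WT and at 10.2, 8.02 and 9.39 CPM in KO. No KO library reached the lowest WT library, and the WT level was 1.74 times that of KO by summed counts (95% exact interval 1.61 to 1.89, counting error only). The log2 fold change was -0.80 (edgeR adjusted p = 4.45e-07, SE 0.0858), lower than that of all but 7.04% of tested genes, and trend removal left it at -0.77 with an adjusted p of 6.27e-07. The tested genes within 50 kb of Entpd1 were not called. Tctn3, which begins beside Entpd1 on the opposite strand, went from 0.870 ± 0.117 to 0.944 ± 0.175 CPM, and Aldh18a1, a proline synthesis gene, from 6.02 ± 0.504 to 5.89 ± 0.851 CPM, and neither was called. The first Entpd1 promoter window, at chr19:40612116-40612415 on the plus strand, is shown as the gene with the second largest fall, and it held no match to any motif searched, as did the other Entpd1 window.
Entpd1: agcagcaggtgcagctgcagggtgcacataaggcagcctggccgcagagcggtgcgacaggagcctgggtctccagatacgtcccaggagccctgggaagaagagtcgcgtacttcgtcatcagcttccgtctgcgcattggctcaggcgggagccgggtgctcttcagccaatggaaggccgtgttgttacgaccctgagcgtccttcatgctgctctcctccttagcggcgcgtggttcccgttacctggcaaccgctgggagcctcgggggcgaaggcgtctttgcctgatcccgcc

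Pannexin 1 (Panx1, ENSMUSG00000031934, chromosome 9, 15002128 to 15045478, minus strand) forms the channel that caspases open in dying cells and through which ATP escapes. Panx1 was at 3.93, 4.16 and 4.798 CPM in WT and at 4.96, 4.93 and 5.27 CPM in KO. Although the libraries did not overlap, the gap between the groups was small beside the spread within WT, and the log2 fold change of 0.24 was not called (edgeR adjusted p = 0.0883, SE 0.117, 95% interval -0.09 to 0.57). It was called without WT replicate 3 (0.33, edgeR adjusted p = 0.0342) and with library totals (0.35, adjusted p = 0.0149), and was 0.04 with an adjusted p of 0.804 after trend removal. The ratio of Entpd1, which degrades ATP, to Panx1, which releases it, was 4.05 in WT and 1.96 in KO. On the log2 scale it was 2.02 ± 0.0789 and 0.97 ± 0.172, without overlap (exact permutation p = 0.1), and the difference of -1.05 was -0.81 after trend removal.

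The adenosine receptor genes moved apart, and in the main fit Adora2a rose while Adora2b fell. The A2a receptor (Adora2a, ENSMUSG00000020178, chromosome 10, 75316877 to 75334784, plus strand) is the high-affinity receptor that couples to Gs and whose transcript LPS is known to induce in macrophages. Adora2a was at 327, 317 and 302 CPM in WT and at 359, 353 and 346 CPM in KO. Every KO library was above every WT library, by a margin smaller than the range of WT, and the log2 fold change of 0.16 (edgeR adjusted p = 6.57e-04, SE 0.0344) turned to -0.01 with an adjusted p of 0.752 after trend removal. The A2b receptor (Adora2b, ENSMUSG00000018500, chromosome 11, 62248984 to 62266453, plus strand) is the low-affinity receptor that responds when adenosine is high. Adora2b was at 75.5, 74.6 and 72.9 CPM in WT and at 55.0, 56.8 and 57.2 CPM in KO. The gap between the groups was far wider than either range, and the log2 fold change was -0.40 (edgeR adjusted p = 1.12e-07, SE 0.0381), with -0.30 and an adjusted p of 1.57e-06 after trend removal. The Adora2a transcript was 2.55 times that of Adora2b per length in WT and 3.77 times in KO. As log2 of Adora2b over Adora2a, the ratio was -1.35 ± 0.0335 in WT and -1.92 ± 0.0550 in KO, without overlap (exact permutation p = 0.1), and the difference of -0.56 was -0.29 after trend removal.

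None of the 4 tested genes within 50 kb of Adora2b, Zswim7, Ncor1, Specc1 and Ttc19, was called lower. Zswim7, 771 bp away, was at 14.9 ± 0.956 CPM in WT and 15.2 ± 0.0772 CPM in KO and was not called, though it was called after trend removal (log2 fold change 0.24, edgeR adjusted p = 0.00419). Ncor1, which encodes a nuclear receptor corepressor, rose by 0.48 on the log2 scale (edgeR adjusted p = 5.01e-06; 0.25 after trend removal), Specc1 by 0.24 (adjusted p = 0.00540) and Ttc19 by 0.34 (adjusted p = 0.0420). The Specc1 value turned to -0.13 after trend removal, and the Ttc19 call was lost without WT replicate 1 (adjusted p = 0.143) and with DESeq2 (adjusted p = 0.0762). Near Adora2a, Gucd1 rose by 0.51 (edgeR adjusted p = 5.90e-08) and Specc1l by 0.15 (adjusted p = 0.00843), and after trend removal their values were 0.16 and -0.16, the latter a call in the opposite direction (edgeR adjusted p = 0.00266).

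**Figure D3:**
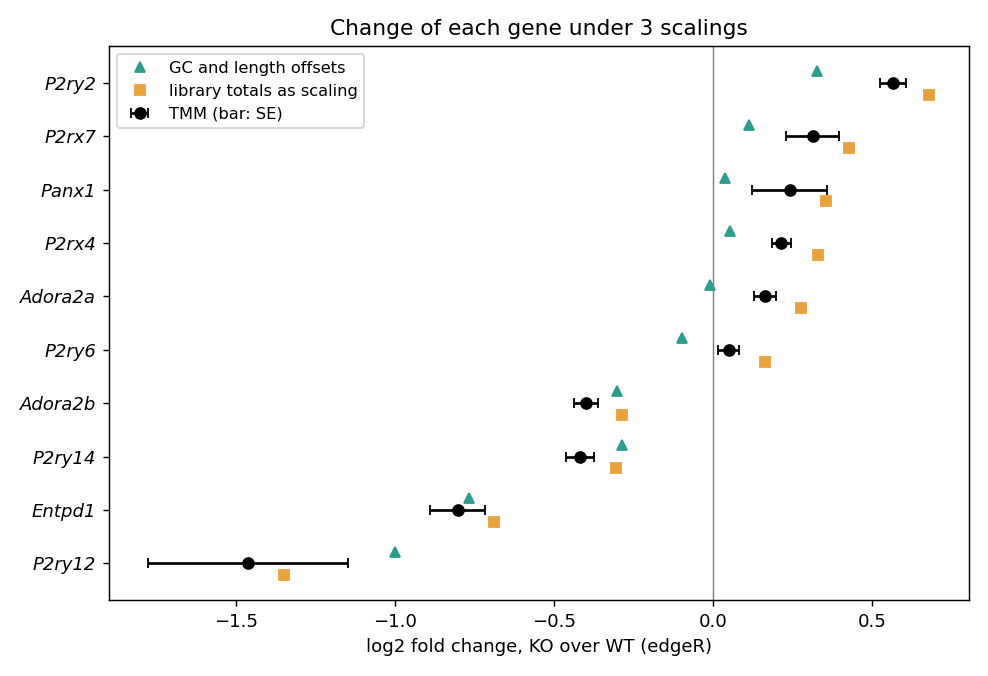
Log2 fold change of KO over WT (horizontal axis) of the 10 genes under TMM scaling (black, bars are SE), scaling by library totals (squares) and removal of the GC and length trend (triangles). P2ry2 stays above 0 and P2ry12, Entpd1, P2ry14 and Adora2b below 0 under all 3, whereas P2ry6 and Adora2a fall below 0 after trend removal and P2rx4, P2rx7 and Panx1 move close to it.

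**Figure D4:**
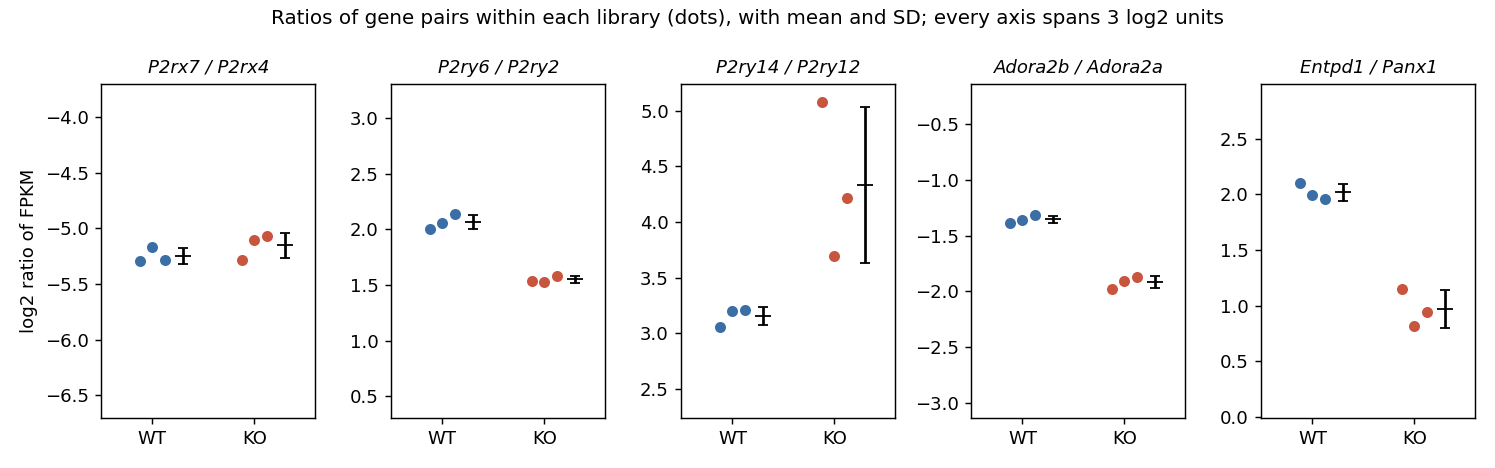
Log2 ratio of deposited FPKM of 2 genes within each WT (blue) and KO (red) library, with mean and SD in black, each vertical axis spanning 3 log2 units. The KO libraries are separate from WT for every pair but P2rx7 over P2rx4, with the widest spread in P2ry14 over P2ry12, where the KO libraries run from 3.70 to 5.08.

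The authors' deposited table gives log2 fold changes of -1.47 for P2ry12, -0.80 for Entpd1, -0.42 for P2ry14, -0.40 for Adora2b, 0.05 for P2ry6, 0.16 for Adora2a, 0.22 for P2rx4, 0.24 for Panx1, 0.31 for P2rx7 and 0.57 for P2ry2. Its adjusted p is above 0.05 for P2ry6 (0.277) and Panx1 (0.236), the genes that were not called with edgeR either.

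Other genes of the system were taken from 9 lists of 88 genes outside the set, of which 69 were tested and 50 called, 27 higher and 23 lower. Among all tested genes 61.3% were called, 31.5% higher and 29.8% lower. The counts of each list below stand beside these same shares, so calls alone do not set the system apart. After trend removal 46 were called, 18 higher and 28 lower, and with library totals 48, 32 higher and 16 lower. Apart from P2ry13, given above, the other nucleotide and adenosine receptor genes were each below 2 CPM. P2rx1, P2rx2, P2rx3, P2rx6 and P2ry1 were below the filter, and P2ry4 and Adora1 had 0 counts in every library, which allows up to 0.0707 to 0.0938 CPM, the level of 3 counts in a library. P2rx5 went from 0.172 ± 0.141 to 0.282 ± 0.0572 CPM and Adora3 from 1.52 ± 0.0250 to 1.33 ± 0.0868 CPM, and neither was called. Besides P2ry13, no further receptor gene of the 10 listed was called.

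The other surface enzymes that break down nucleotides fell in 3 of the 6 tested and rose in 1, with a median log2 fold change of -0.57, and after trend removal 4 were lower and 2 higher. The one that rose in the main fit was Cd38, whose product consumes NAD, from 48.4 ± 3.67 to 78.8 ± 2.40 CPM (log2 fold change 0.70, edgeR adjusted p = 3.46e-09, SE 0.0501). Acpp, an acid phosphatase gene whose product can make adenosine from AMP, fell from 8.67 ± 0.346 to 5.43 ± 0.552 CPM (log2 fold change -0.67, edgeR adjusted p = 1.56e-05). Enpp1, which makes AMP from ATP and also hydrolyses the STING ligand cGAMP, fell from 3.69 ± 0.242 to 2.68 ± 0.0526 CPM (-0.46, edgeR adjusted p = 0.00737). Alpl, an alkaline phosphatase gene, fell from 1.41 ± 0.264 to 0.881 ± 0.186 CPM (-0.67, edgeR adjusted p = 0.0286), a call lost with library totals (adjusted p = 0.0637) and without WT replicate 2 (adjusted p = 0.109). Nt5e, the gene of CD73, was at 1.00 ± 0.307 CPM in WT and 0.624 ± 0.103 CPM in KO and was not called (log2 fold change -0.69, edgeR adjusted p = 0.0548), but was called after trend removal (-0.86, adjusted p = 0.0202). Bst1, a relative of Cd38, was at 22.1 ± 1.09 and 21.5 ± 1.25 CPM and not called, and 0.17 with an adjusted p of 0.0205 after trend removal. Entpd2, Entpd3 and Enpp3 were below the filter and Entpd8 was at 0 in every library. Alpl and Nt5e are also expressed by stromal cells, whose markers summed lower in KO as given above. Whether this bears on the Alpl and Nt5e values was not tested. Of the intracellular relatives of CD39, Entpd6 rose by 0.95 (edgeR adjusted p = 2.99e-05) and Entpd7 by 0.36 (adjusted p = 0.00191, not called after trend removal at 0.0760), while Entpd5 fell by 0.35 (adjusted p = 0.0489), a call lost with DESeq2 (adjusted p = 0.0753), with library totals (0.179) and without KO replicate 1 (0.210).

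Adenosine uptake and breakdown genes were all tested, with 2 of 8 higher and 4 lower. The nucleoside transporter genes Slc29a2 and Slc29a3 rose by 0.89 and 0.64 on the log2 scale (edgeR adjusted p = 0.00232 and 1.54e-08), and by 0.77 and 0.43 after trend removal. Ada, which encodes adenosine deaminase, fell from 3.67 ± 0.177 to 2.49 ± 0.0301 CPM (log2 fold change -0.55, edgeR adjusted p = 0.00222). ATP release genes other than Panx1 had 3 of 6 tested higher and 1 lower, and 1 higher and 1 lower after trend removal. The fall was that of Slco2a1, a core gene of the Maxi-Cl channel, from 1.99 ± 0.381 to 1.00 ± 0.281 CPM (log2 fold change -1.001, edgeR adjusted p = 0.00190). Among the volume-regulated anion channel genes, Lrrc8a rose by 0.47 (edgeR adjusted p = 0.0240) and Lrrc8c by 0.41 (adjusted p = 1.39e-06), and the Lrrc8a call was lost after trend removal (adjusted p = 0.265), with DESeq2 (0.0591) and without KO replicate 1 (0.0808). The other higher call of the list, Lrrc8d, named after its values were seen, went from 0.38 (edgeR adjusted p = 5.44e-07) to 0.08 (adjusted p = 0.0743) after trend removal. Panx3 and Abcc6 were at 0 in every library.

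Downstream of P2X7, 6 of 10 tested genes fell and 2 rose, beside 29.8% lower and 31.5% higher among all tested genes. After trend removal 6 were lower and 2 higher, and with library totals 5 were lower and 4 higher. Casp1, which encodes the inflammasome protease, fell from 521 ± 24.2 to 272 ± 3.27 CPM (log2 fold change -0.94, edgeR adjusted p = 1.78e-12), and by 0.42 after trend removal. Nek7, whose product binds NLRP3 on potassium efflux, fell from 40.2 ± 1.81 to 24.4 ± 1.17 CPM (log2 fold change -0.72, edgeR adjusted p = 5.48e-09). Kcnk6, which encodes the potassium channel TWIK2, rose from 9.40 ± 0.351 to 16.9 ± 0.250 CPM (log2 fold change 0.85, edgeR adjusted p = 1.25e-08). These were the 3 called genes of the list with the largest changes.

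Downstream of the P2Y and adenosine receptors, G protein and cAMP enzyme genes had 9 of 22 tested higher and 7 lower, and after trend removal 5 higher and 9 lower. Adcy7, an adenylyl cyclase gene, rose from 15.9 ± 1.15 to 32.2 ± 0.785 CPM (log2 fold change 1.01, edgeR adjusted p = 4.28e-10). Rapgef3, the gene of the cAMP sensor EPAC1, fell by 1.01 on the log2 scale, from 0.874 ± 0.0378 CPM to 0.436 ± 0.239 CPM (edgeR adjusted p = 0.0201), and was not called without KO replicate 3 (adjusted p = 0.105). Genes known to be induced by cAMP had 7 of 14 tested higher and 3 lower with a median log2 fold change of 0.17, and 4 higher and 5 lower after trend removal. Crem, on both lists and coding for cAMP-responsive repressors, fell from 14.5 ± 0.819 to 7.25 ± 0.603 CPM (log2 fold change -0.99, edgeR adjusted p = 1.94e-08). The coactivator gene Ppargc1b and the kinase gene Sik1 rose by 1.42 and 0.85 (edgeR adjusted p = 0.00231 and 1.95e-04). Ppargc1b was a low transcript, at 0.340 ± 0.153 CPM in WT and 0.939 ± 0.204 CPM in KO. Its WT replicate 3, at 0.192 CPM, was below the filter level of 0.288 CPM.

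**Figure D5:**
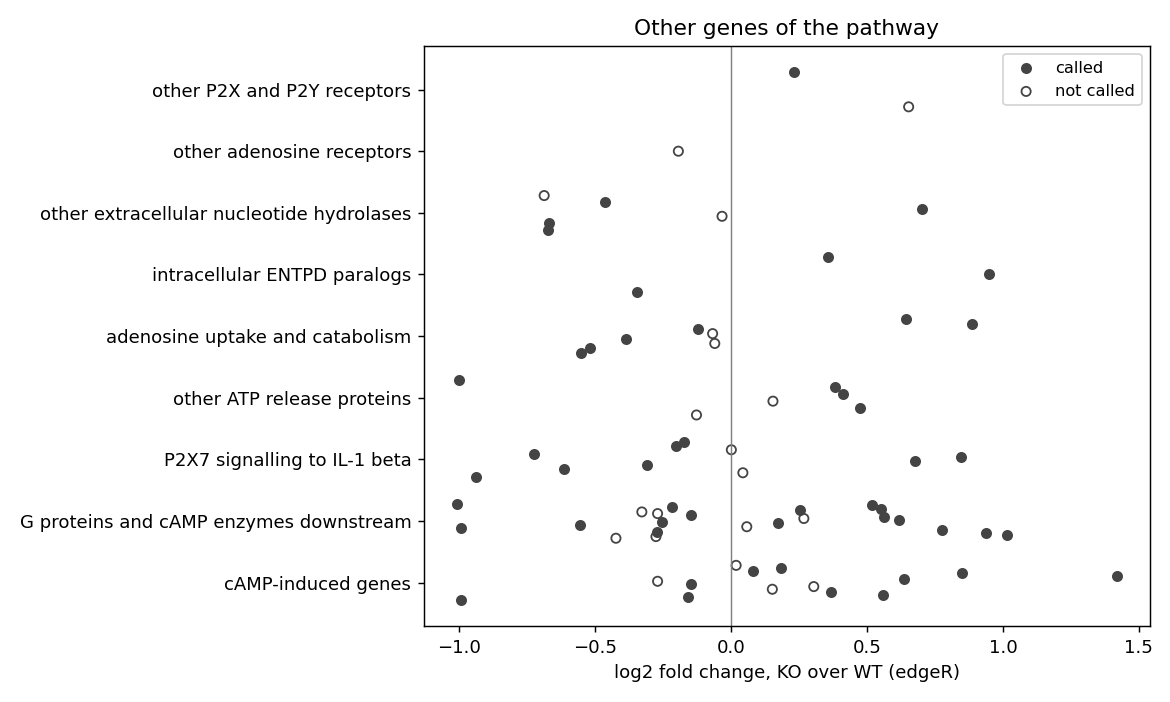
Log2 fold change of KO over WT (horizontal axis, edgeR with TMM) of the 69 tested genes of the system outside the 10 described, 1 row for each list, with called genes filled and the others open. Genes on either side of 0 occur in each list with more than 2 tested genes, and removal of the GC and length trend moved the counts of higher and lower calls from 27 and 23 to 18 and 28. Before that removal 31.5% of all tested genes were called higher and 29.8% lower.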

How the data were processed

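RNA-seq was analysed from 3 WT and 3 KO libraries, built with the NEBNext Ultra kit from 1 ug of total RNA, per the labels' protocols. The submitters' processing notes list Bowtie 0.12.2 and, without a role for either, the mouse builds mm8 and mm10. The labels and headers state neither the read assignment to genes nor the strand handling. Counts, as deposited by the authors, are whole reads for each gene and carry no normalization, per the file headers. The deposited FPKM values are scaled by gene length and by a library total, per the file headers. The deposited signal columns hold a mean normalized value per genotype and were not used in any test. The deposited log2 fold changes, p-values and adjusted p-values are the authors' comparison of KO with WT, by a tool that the headers do not name. Of 54495 gene identifiers found in GENCODE vM21, 98.3% had the deposited span, as had all 10 genes described here, so positions are given on mm10. Rows with no Ensembl identifier, 128 in number, held 0.0427% to 0.0502% of counts and were kept in the library sizes.

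Counts of all 6 libraries were tested with edgeR 4.0.16 in R 4.3.3 (TMM, default filter with a minimum count of 10, quasi-likelihood test, genotype as the term, Benjamini-Hochberg adjustment over 13080 genes). CPM values are TMM-scaled. The SE was computed as the size of the log2 fold change over the root of its F statistic. The 95% intervals of log2 fold changes used a t distribution with residual degrees of freedom only. These are fewer than in the edgeR test, so the intervals are wider than that test implies. The GC and length trend was removed with a smooth curve per library on GC content and log2 length, entered as offsets for the 12971 genes with both values. DESeq2 1.42.0, library totals, no filter, a replicate block and leaving out each library were the other alternatives. Ratios of FPKM between genes used no pseudocount and a two-sided exact permutation test over 20 splits. Separate animals are not named for the libraries in the labels, and p-values therefore reflect only library-to-library spread, possibly technical. Same-genotype libraries differed by more than sampling noise (chi-square per degree of freedom 2.77 to 6.32).

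The 10 genes and all lists were chosen with earlier results of these data known. Genes named in the text are the 10 genes, Xbp1, every listed receptor and surface hydrolase, up to 3 called genes with the largest change from each list, tested genes within 50 kb of the 10, and the 3 genes closest to P2ry12 in pattern. Cell type markers, listed genes at 0 in every library, and Nlrp3, Pycard, Il1b and Il18 are also named beside their lists. That choice was made after their values were seen.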

Additional observations from a re-analysis of the deposited data

How the results depend on the processing

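Removal of the GC and length trend left 1 of the 4 higher calls, P2ry2, with and without a replicate block, and it reversed P2ry6 to -0.10 and Adora2a to -0.011 on the log2 scale, again with and without the block. The cause was not tested. Under that removal, chosen for the ratios after seeing the data, the log2 differences were -0.42 for P2ry6 over P2ry2, -0.29 for Adora2b over Adora2a and -0.81 for Entpd1 over Panx1. Over the 12 alternatives and 10 genes, 109 of the results stayed on their side of the threshold with the same direction, 6 were no longer called, among them Adora2a with a changed sign in 2 fits, and 5 became called, among them P2ry6 with a changed sign in 2 fits. Deviations of same-numbered libraries correlated at -0.0368, 0.0355 and 0.0362, and those of differently numbered libraries at -0.0675 to 0.0387. This check showed no pairing by replicate number, and with correlations this weak it cannot exclude one. With the replicate block 8013 genes and 8 of the 10 were called. The count over all genes was 7392 with DESeq2, 8140 with no filter and 7271 after trend removal. P2ry12, with 52 KO counts in all, is the gene whose size depth limits most, and its log2 fold change ranged from -1.80 to -0.999.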
